A study of Mus musculus with 18 samples.

Results

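The Ikaros family is a group of 5 zinc finger transcription factors in the mouse, encoded by *Ikzf1* (Ikaros), *Ikzf2* (Helios), *Ikzf3* (Aiolos), *Ikzf4* (Eos) and *Ikzf5* (Pegasus). The genes were taken by symbol, through their Ensembl gene identifiers, from tables of 45706 genes, and all 5 were found in every one of 18 libraries. The libraries were poly(A) RNA-seq of purified CD8+ T cells from OT-I mice, whose T cell receptor transgene recognises a peptide of ovalbumin (OVA). Repeat peptide stimulated cells received OVA peptide daily for 5 days, an *in vitro* model of T cell exhaustion, and single peptide stimulated cells met the peptide once and were then cultured without it. Cells of both kinds were then kept from day 5 to day 8 with either 1 µM ibrutinib, an irreversible inhibitor of Bruton's tyrosine kinase (BTK) that also binds other kinases, or its solvent DMSO. Repeat peptide stimulated cells gave 4 DMSO and 5 ibrutinib libraries, and single peptide stimulated cells gave 5 DMSO and 4 ibrutinib libraries.

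According to the study's methods, the repeat peptide stimulated cells stayed with the peptide while they were treated, so the groups differed in peptide exposure up to harvest. The strain entry of every library reads wild type, but the genotype entry names sets of libraries, and in 4 of the 6 sets its text contains a *Btk* knockout. *Btk* itself had 0 to 27 counts per library, which was too low to check that entry, and all libraries were treated as wild type. Libraries that share an entry are called experiments A to F here. Experiments A to D each hold 1 library of all 4 groups, experiment E holds 1 repeat peptide library with ibrutinib, and experiment F holds 1 single peptide library with DMSO.

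Ikaros family proteins bind DNA through zinc fingers near the amino terminus and pair with each other through fingers at the carboxy terminus. They recruit chromatin remodelling and histone deacetylase complexes, mainly NuRD, and can repress or activate genes. Ikaros and Aiolos shape lymphocyte development and restrain effector genes in T cells, whereas Helios and Eos are best known in regulatory T cells, and Helios is also found in activated and chronically stimulated T cells. Pegasus is the most divergent member.

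The coding sequence of a DNA-binding finger is shown as an illustration. It was picked because it separates Pegasus from the other members, so it is no test of how the members relate. The 5 sequences below are coding DNA in GRCm38, 5′ to 3′ on the gene's strand, read from GENCODE M21 transcripts, and the capitals mark the codons of the cysteine pair and the histidine pair that hold the zinc. They are the second finger of *Ikzf1* (exon 6, chr11:11754024-11754086, plus strand), *Ikzf2* (exon 5, chr1:69570581-69570643, minus strand), *Ikzf3* (exon 5, chr11:98488940-98489002, minus strand) and *Ikzf4* (exon 5, chr10:128640229-128640291, minus strand), and the first finger of *Ikzf5* (exon 3, chr7:131393759-131393821, minus strand).
Ikzf1: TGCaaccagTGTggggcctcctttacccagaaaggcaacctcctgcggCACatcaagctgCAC
Ikzf2: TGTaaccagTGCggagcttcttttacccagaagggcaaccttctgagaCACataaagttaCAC
Ikzf3: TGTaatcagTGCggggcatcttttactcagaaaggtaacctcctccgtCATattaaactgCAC
Ikzf4: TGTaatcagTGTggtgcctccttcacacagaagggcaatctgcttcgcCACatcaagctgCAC
Ikzf5: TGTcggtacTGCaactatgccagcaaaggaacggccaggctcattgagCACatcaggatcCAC

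*Ikzf2*, *Ikzf3* and *Ikzf4* shared 81.0%, 81.0% and 84.1% of the 63 bases with *Ikzf1*, and all 21 encoded residues were the same in these 4 genes. For *Ikzf5*, a search by the spacing of cysteines and histidines found 4 fingers, and would miss a finger with other spacing. The finger printed is the one of these most like the second finger of *Ikzf1*, a choice made after its sequence was seen. It shared 46.0% of the bases and 6 of 21 residues, among them the cysteines and histidines. The search requires the cysteines and the first histidine, so these match in any finger it finds. Other fingers of *Ikzf1* were not compared with those of *Ikzf5*. The second finger of *Ikzf5*, the one in the same order, shared 41.3% of the bases and 5 of 21 residues. The longest exact run that any pair of members shared in their coding sequences was 26 bases, between *Ikzf1* and *Ikzf3*, and no member had a fractional count in any library, as reads divided between genes would give.

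The genes lie at chr11:11685003-11772926 (*Ikzf1*), chr1:69531214-69687245 (*Ikzf2*), chr11:98464902-98546031 (*Ikzf3*), chr10:128630843-128645991 (*Ikzf4*) and chr7:131388652-131410521 (*Ikzf5*). *Pstk*, on the opposite strand to *Ikzf5*, overlaps it and had up to 901 counts in a library. The library kit keeps strand, but the strand setting of the counting is not given in the sources used here, so the *Ikzf5* values are uncertain to that extent. The other annotated neighbours that overlap a member and were in the tables had at most 16 counts.

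Library totals ran from 23445922 to 51995372 counts, with a median of 27420966. The markers of CD8 T cells (*Cd3e*, *Cd3g*, *Cd8a*, *Cd8b1*) summed to 1740 to 2692 TPM, a level corrected for depth and transcript length, in every library. *Cd4* stayed at or below 0.17 TPM. Among the markers of other cells, *Foxp3*, the regulatory T cell factor, was listed at 0.75 to 8.49 TPM in single peptide and 0 to 1.02 TPM in repeat peptide stimulated cells. It was called lower with repeat peptide (log2 fold change -5.66 with DMSO and -2.96 with ibrutinib, edgeR adjusted p = 0.000223 and 0.00526). The NK cell receptor gene *Klrb1c* went the other way, with 0.51 to 2.63 TPM against 2.64 to 25.2 TPM, while *Ncr1*, the other NK marker, stayed at or below 1.16 TPM in single and 0.42 TPM in repeat peptide stimulated cells. *Klrb1c* was called higher with repeat peptide (log2 fold change 1.79 with DMSO and 2.23 with ibrutinib, edgeR adjusted p = 0.0109 and 0.00464). The summed markers of myeloid, dendritic and erythroid cells stayed at or below 6.23 TPM. Within those sums *Cd14*, a monocyte receptor gene, was at 0.26 to 2.92 TPM with repeat and at most 0.04 TPM with single peptide, and *Zbtb46*, a dendritic cell factor, at 0.24 to 2.31 TPM and 0.03 to 0.2 TPM. Other myeloid markers did not go the way of *Cd14*. *Lyz2* reached 1.94 TPM with repeat and 5.92 TPM with single peptide, *Itgam* reached 0.39 and 0.45 TPM, and *Csf1r* and *Adgre1* stayed at or below 0.09 TPM. *Cd79b*, a B cell receptor subunit gene, was at 0.96 to 4.09 TPM with repeat and 3.12 to 7.08 TPM with single peptide, and was called lower with repeat peptide (log2 fold change -1.56 with DMSO and -1.15 with ibrutinib, edgeR adjusted p = 0.00187 and 0.0138). The single markers were named after their values were seen. The part of these markers in the results was not tested. In bulk RNA, more cells that use a gene and more RNA per cell cannot be told apart.

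Ikaros was the dominant member. By TPM, *Ikzf1* was highest and *Ikzf3* second in 18 of 18 libraries, with 82.2 to 221 TPM for *Ikzf1* and 42.6 to 118 TPM for *Ikzf3*. *Ikzf5* had 6.95 to 14.7 TPM, *Ikzf2* 2.52 to 36.2 TPM and *Ikzf4* 2.23 to 19.1 TPM. *Ikzf1* thus made up 53.4% to 69.1% of the family's summed TPM and *Ikzf3* 23.0% to 36.6%. Across the 12255 genes tested, 94.3% had a lower mean TPM than *Ikzf1* and 86.7% a lower one than *Ikzf3*, against 41.6% for *Ikzf5*, 38.9% for *Ikzf2* and 36.2% for *Ikzf4*.

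**Figure D1:**
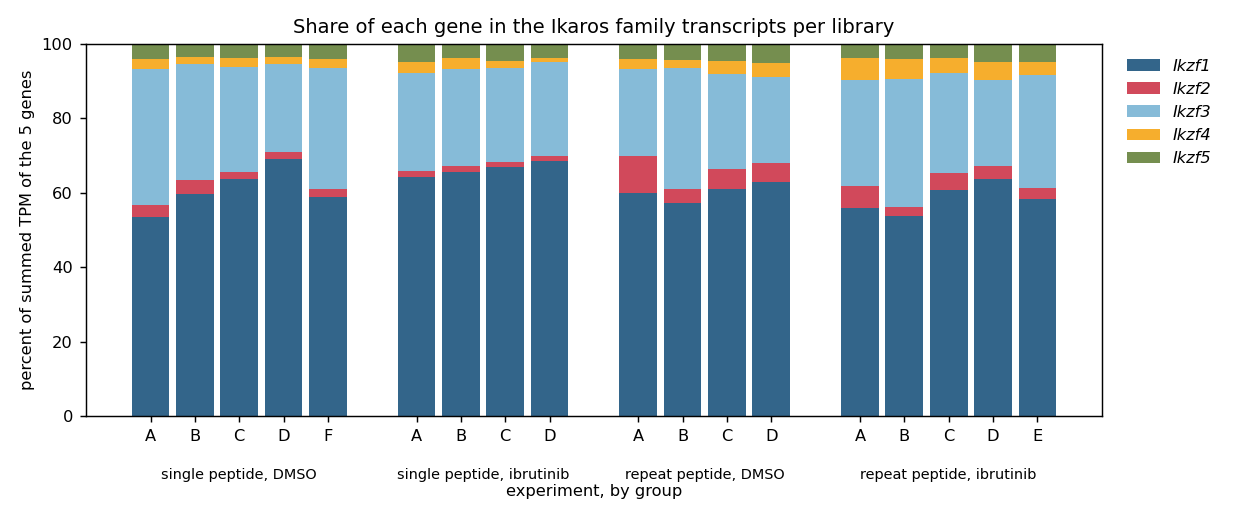
Percent of the summed TPM of the 5 genes (y axis) taken by each gene in every library (x axis, experiments A to F within each of the 4 groups). *Ikzf1* and *Ikzf3* fill most of every bar, and the *Ikzf2* segment reaches 9.9% in the repeat peptide DMSO library of experiment A.

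The order of the lower 3 members was not fixed, since their ranges overlapped. In repeat peptide stimulated cells with DMSO, *Ikzf2* came next after *Ikzf3* in 3 of 4 libraries and *Ikzf4* was lowest in 4 of 4. In single peptide stimulated cells with ibrutinib, *Ikzf5* came next after *Ikzf3* in 4 of 4 libraries and *Ikzf2* was lowest in 3 of 4. As a share of the family, *Ikzf2* took 3.67% to 9.9% in the former and 1.32% to 1.70% in the latter.

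The members also differed in how much they varied. The highest library exceeded the lowest by 8.87-fold for *Ikzf2* and 4.03-fold for *Ikzf4* in normalized read count, a count scaled for library size and composition. The same ratio was 2.31 for *Ikzf3*, 1.59 for *Ikzf5* and 1.58 for *Ikzf1*. The coefficient of variation within groups followed the same order, from 39.6% for *Ikzf2* through 28.2%, 20.9% and 12.3% to 10.5% for *Ikzf1*.

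**Figure D2:**
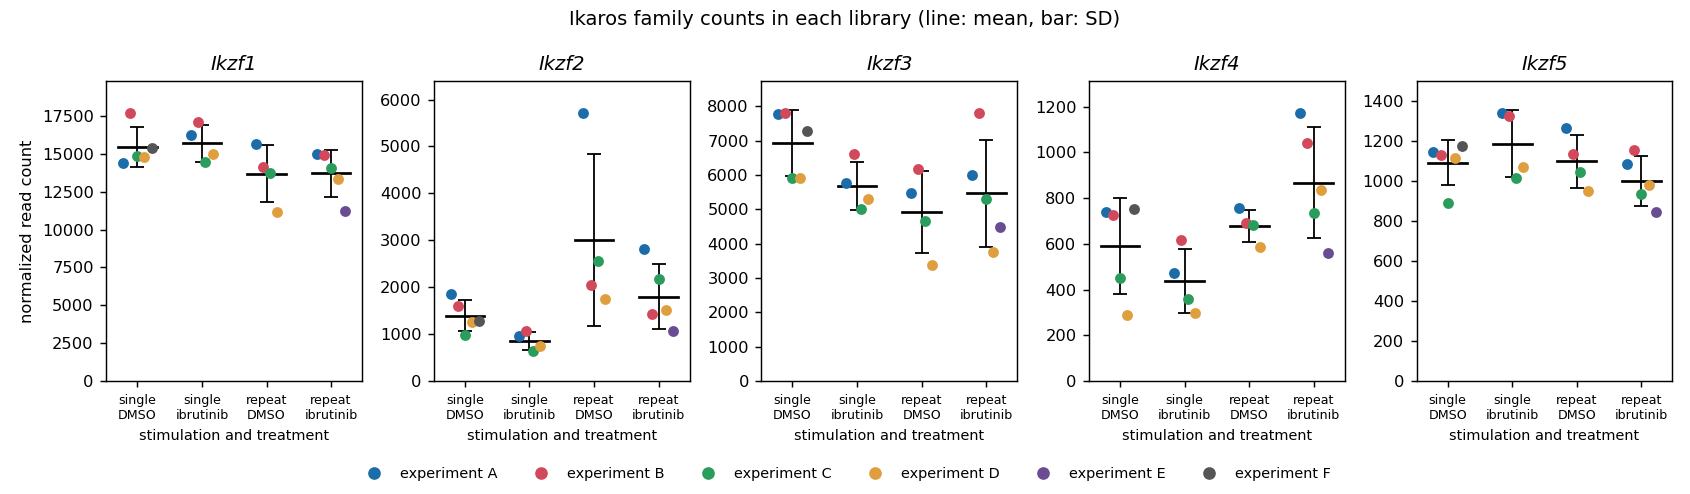
Normalized read count (y axis, starting at 0) of each gene in every library, by group (x axis) and experiment (colour), with the group mean (line) and SD (bar). *Ikzf2* spans 643.6 to 5710 counts, while *Ikzf5* stays between 841.4 and 1337.

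The first comparison asks how daily peptide, compared with a single exposure, changed the family in cells that received DMSO only. *Ikzf2* rose and *Ikzf3* fell, and the other members did not pass the test. A gene is called changed where edgeR's quasi-likelihood test gave a Benjamini-Hochberg adjusted p under 0.05 over all tested genes and further limits held. The log2 fold change had to exceed 0.2 in size, and normalized counts had to average 50 or more over all 18 libraries. By this rule 2 of 5 members were called, against 47.0% of all tested genes, so the family's share was near the background.

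*Ikzf2*, the Helios gene, had normalized counts of 5710, 2040, 2558 and 1739 in the repeat peptide libraries of experiments A to D. The single peptide libraries of experiments A, B, C, D and F had 1856, 1589, 987.7, 1252 and 1269. The library of experiment A was the highest of its group, with a Dixon ratio (gap over range) of 0.794 that stayed under the 95% critical value, and the groups overlapped only through the lowest repeat peptide and the highest single peptide library. The log2 fold change was 1.11 (SE 0.314, edgeR adjusted p = 0.00597), or 2.16-fold, and *Ikzf2* was higher with repeat peptide in 4 of 4 experiments, by 0.36 to 1.62 on the log2 scale. Without the repeat peptide library of experiment A, it was 0.60 and missed the threshold (edgeR adjusted p = 0.0641).

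*Ikzf3*, the Aiolos gene, had 5473, 6170, 4655 and 3373 normalized counts in the repeat peptide libraries of experiments A to D. The single peptide libraries had 7776, 7800, 5909, 5907 and 7294 in experiments A, B, C, D and F. Repeat peptide libraries were mostly lower, but experiment B's value was above 2 single peptide values. *Ikzf3* fell by 0.50 on the log2 scale (SE 0.189, edgeR adjusted p = 0.0337) and was lower in 4 of 4 experiments. In this fit, which does not pair libraries by experiment, the call rested on single libraries. Leaving out any one of 5 libraries (repeat peptide C or D, single peptide A, B or F) gave adjusted p of 0.0594 to 0.136 in edgeR, with log2 fold changes of -0.48 to -0.35. With the experiment as a replicate block, the log2 fold change was -0.50 (SE 0.105, edgeR adjusted p = 0.000647). Libraries were not left out of the fit with the block.

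*Ikzf1* averaged 13694 ± 1868 (SD, n = 4) normalized counts with repeat and 15429 ± 1317 (SD, n = 5) with single peptide. Its log2 fold change of -0.17 had a 95% interval of -0.41 to 0.06 (edgeR adjusted p = 0.205). *Ikzf5* averaged 1097 ± 132.7 (SD, n = 4) and 1090 ± 113.6 (SD, n = 5), with a log2 fold change of 0.01 and an interval of -0.25 to 0.26. A p that misses the threshold does not show that these levels were the same, and the intervals give the sizes that remained possible.

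*Ikzf4*, the Eos gene, had 754.9, 693.0, 681.4 and 586.0 normalized counts in the repeat peptide libraries of experiments A to D. The single peptide libraries had 739.8, 724.8, 451.2, 290.6 and 751.5 in experiments A, B, C, D and F. The low single peptide values came from experiments C and D, and the others lay within the repeat peptide range. The log2 fold change was 0.20 (SE 0.265, edgeR adjusted p = 0.545). With the experiment as a replicate block, which compares libraries that share an experiment, it was 0.38 and just passed the threshold (edgeR adjusted p = 0.0494), which made 3 of 5 members called in that fit, against 53.6% of all tested genes.

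The second comparison sets repeat against single peptide in cells that received ibrutinib. *Ikzf2* and *Ikzf4* rose, and the other members did not pass the test. This was 2 of 5 members called, against 38.4% of all tested genes.

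*Ikzf2* had 2811, 1434, 2163, 1504 and 1066 normalized counts in the repeat peptide libraries with ibrutinib of experiments A, B, C, D and E. The single peptide libraries with ibrutinib had 950.0, 1067, 643.6 and 754.9 in experiments A to D. The groups met only at experiment E, at 1066, and experiment B, at 1067. The log2 fold change was 1.07 (SE 0.323, edgeR adjusted p = 0.0122), and *Ikzf2* was higher in 4 of 4 experiments.

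*Ikzf4* had 1172, 1040, 734.0, 834.0 and 559.4 normalized counts in the repeat peptide libraries with ibrutinib of experiments A, B, C, D and E. The single peptide libraries with ibrutinib had 472.2, 616.3, 359.8 and 297.8 in experiments A to D. Only the library of experiment E lay within the single peptide range. The log2 fold change was 0.99 (SE 0.271, edgeR adjusted p = 0.00655), or 1.99-fold, and the difference within experiments A to D was 0.753 to 1.48.

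*Ikzf3* averaged 5467 ± 1551 (SD, n = 5) with repeat and 5670 ± 697.4 (SD, n = 4) with single peptide, with a log2 fold change of -0.05 and a 95% interval of -0.45 to 0.34. *Ikzf1* and *Ikzf5* had log2 fold changes of -0.19 (interval -0.43 to 0.04) and -0.25 (interval -0.50 to 0.01). Both were lower with repeat peptide in 4 of 4 experiments but missed the threshold (edgeR adjusted p = 0.168 and 0.11).

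**Figure D3:**
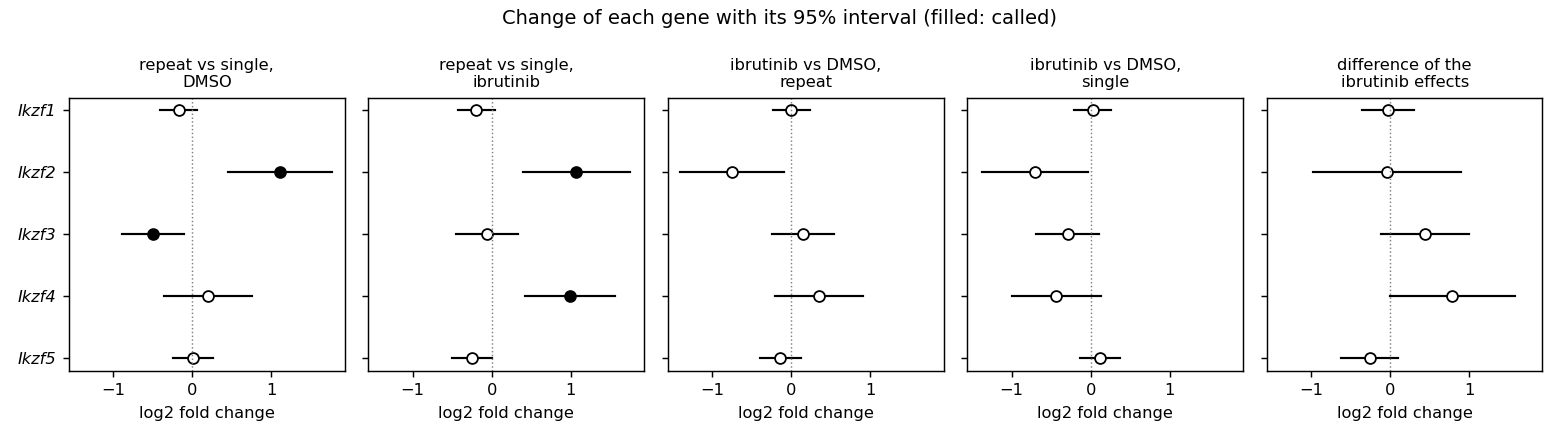
Log2 fold change (x axis) of each gene (y axis) with its 95% interval in 5 comparisons, with filled points for genes called. *Ikzf2* lies near 1 in both repeat against single comparisons, *Ikzf4* lies at 0.99 with ibrutinib and at 0.20 with DMSO, and no gene is called in the 3 panels on ibrutinib.

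The third comparison asks how ibrutinib changed the family in repeat peptide stimulated cells. In edgeR 0 of 5 members were called, against 5.92% of all tested genes, and 1 member, *Ikzf2*, had an unadjusted p under 0.05. DESeq2 and the fit with the replicate block also called 0. The comparison shares its DMSO libraries with the first one.

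*Ikzf2* averaged 1796 ± 691.7 (SD, n = 5) normalized counts with ibrutinib and 3012 ± 1830 (SD, n = 4) with DMSO. Its log2 fold change of -0.75 (SE 0.313, 95% interval -1.40 to -0.09) missed the threshold (edgeR adjusted p = 0.169). It was lower with ibrutinib in 4 of 4 experiments, by -1.02, -0.507, -0.242 and -0.209 in A to D. The largest difference was in experiment A, whose DMSO library had the highest count of its group.

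*Ikzf4* was higher with ibrutinib in 4 of 4 experiments, by 0.107 to 0.633 on the log2 scale. Its fitted log2 fold change was 0.35 (95% interval -0.20 to 0.91, edgeR adjusted p = 0.466). With the replicate block it was 0.46 and came nearer to the threshold without passing it (edgeR adjusted p = 0.0615). *Ikzf3* was also higher in 4 of 4 experiments, by 0.13 to 0.337, with a fitted value of 0.15 (interval -0.24 to 0.55, edgeR adjusted p = 0.687) that was 0.00 without the ibrutinib library of experiment B. *Ikzf1* at 0.00 (interval -0.23 to 0.24) and *Ikzf5* at -0.13 (interval -0.39 to 0.12) had the narrowest intervals.

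The fourth comparison is the effect of ibrutinib in single peptide stimulated cells. In edgeR 0 of 5 members were called, against 3.04% of all tested genes, with 1 unadjusted p under 0.05, again that of *Ikzf2*, and 0 calls in DESeq2 and with the replicate block. *Ikzf2* averaged 853.8 ± 190.3 (SD, n = 4) normalized counts with ibrutinib and 1391 ± 336.2 (SD, n = 5) with DMSO. Its log2 fold change was -0.70 (SE 0.321, 95% interval -1.38 to -0.03, edgeR adjusted p = 0.332), and it was lower in 4 of 4 experiments, by -0.965 to -0.574.

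*Ikzf3* was lower with ibrutinib in 4 of 4 experiments, by -0.428 to -0.154, with a fitted log2 fold change of -0.29 (interval -0.69 to 0.10, edgeR adjusted p = 0.563). *Ikzf4* was lower in 3 of 4 experiments, with a fitted value of -0.44 (interval -0.999 to 0.13, edgeR adjusted p = 0.535). *Ikzf1* at 0.03 (interval -0.21 to 0.26) and *Ikzf5* at 0.12 (interval -0.14 to 0.38) had the narrowest intervals.

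A comparison added after these values were seen took the mean ibrutinib effect over both stimulations. In this comparison 1 of 5 members, *Ikzf2*, was called, against 9.66% of all tested genes (log2 fold change -0.72, SE 0.224, edgeR adjusted p = 0.046). The call was lost under 3 other settings and without any 1 of 12 libraries, and without the repeat peptide DMSO library of experiment A the log2 fold change was -0.47 (edgeR adjusted p = 0.117).

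**Figure D4:**
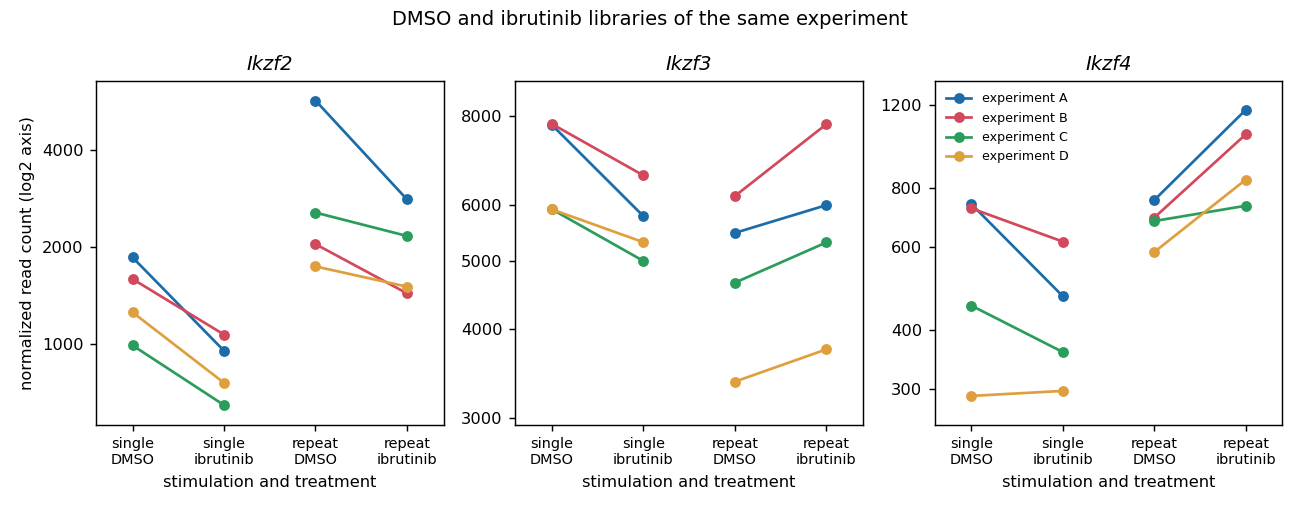
Normalized read count (y axis, log2 scale) of *Ikzf2*, *Ikzf3* and *Ikzf4* in experiments A to D, with lines that join the DMSO and ibrutinib libraries of an experiment within each stimulation. The *Ikzf2* lines fall in both stimulations, while the *Ikzf3* lines fall with single and rise with repeat peptide, a difference whose test gave an edgeR adjusted p of 0.585.

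The last comparison tests whether the ibrutinib effect differed between repeat and single peptide stimulated cells. In edgeR 0 of 5 members were called, against 1.26% of all tested genes, and 0 had an unadjusted p under 0.05; DESeq2 also called 0. The difference between effects was largest for *Ikzf4*, at 0.79 (SE 0.378, 95% interval 0.00 to 1.58, edgeR adjusted p = 0.438), and was 0.44 for *Ikzf3* (interval -0.11 to 1.00, edgeR adjusted p = 0.585). With the replicate block these 2 genes came nearer to the threshold without passing it (edgeR adjusted p = 0.0579 and 0.0806). For *Ikzf2* the difference was -0.04, but its interval of -0.98 to 0.89 was wide, and its sign turned without the repeat peptide DMSO library of experiment A, to 0.47.

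In all 20 pairs of a member and a comparison between 2 groups, the ranges of the groups overlapped. Among all tested genes the share without overlap was 41.4% (DMSO) and 34.3% (ibrutinib) for repeat against single peptide, and 10.1% (repeat) and 6.39% (single peptide) for ibrutinib against DMSO.

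The mean transcript length, which the authors' quantification weights by isoform share, gave a readout of isoform use. It ranged over libraries from 2947 to 4175 bases for *Ikzf1*, 5203 to 8432 for *Ikzf2*, 3094 to 3500 for *Ikzf3*, 2167 to 4945 for *Ikzf4* and 3734 to 4384 for *Ikzf5*. In limma 0 of 5 members were called in any of the 5 comparisons, and 0 had an unadjusted p under 0.05, the lowest being 0.0708 for *Ikzf1* in repeat against single peptide with ibrutinib. The background was low as well, with 1.29% of 8929 genes called for repeat against single peptide in DMSO and 0.146% in ibrutinib. The share was 0.0224% for ibrutinib after repeat peptide, 0.00% after single peptide and 0.0112% for the difference between these effects.

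All 24 genes on a list of complexes linked to Ikaros proteins passed the filter on low counts. The list was made up of NuRD and SWI/SNF (15 genes), the Sin3 and CtBP corepressors (4) and the cereblon ubiquitin ligase (5). Its genes are called partners here only as a label, which does not mean that each complex works with Ikaros proteins in these cells. With DMSO, 8 partners rose and 3 fell with repeat against single peptide, or 11 of 24, which is near the background of 47.0% of all tested genes, with a median log2 fold change of 0.10 against 0.00 for all tested genes. The changed genes were 10 of NuRD and 1 of the ligase, *Ddb1*. *Smarca4*, the SWI/SNF gene on the list, was not called (log2 fold change -0.19, edgeR adjusted p = 0.133).

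The largest called change was in *Chd3*, an ATPase of NuRD, with mean normalized counts of 3966 after repeat and 23950 after single peptide (log2 fold change -2.60, SE 0.22, edgeR adjusted p = 3.21e-08). *Cdk2ap1*, a small NuRD subunit, rose by 1.10 (edgeR adjusted p = 8.12e-07) and *Rbbp7*, a histone-binding subunit, by 0.65 (edgeR adjusted p = 0.000468). *Ctbp2*, a corepressor gene named after its values were seen, had a log2 fold change of 3.32 (edgeR adjusted p = 0.000397) on mean normalized counts of 28.05 with repeat and 2.69 with single peptide, under the minimum for a call. Ibrutinib in repeat peptide stimulated cells changed 2 of the 24, against 5.92% of all tested genes, raising *Chd3* by 1.06 to a mean of 8255 (edgeR adjusted p = 0.00439) and lowering *Cdk2ap1*, at -0.49 (edgeR adjusted p = 0.0192). In single peptide stimulated cells 0 of 24 were called in edgeR, against 3.04% of all tested genes. The difference between the ibrutinib effects was not called for *Chd3* (0.83, edgeR adjusted p = 0.213) or for *Cdk2ap1* (-0.30, edgeR adjusted p = 0.564). With ibrutinib, repeat against single peptide changed 8 of 24 partners, 5 up and 3 down, near the background of 38.4%, led by *Chd3* at -1.77, *Cdk2ap1* at 0.80 and *Rbbp7* at 0.66.

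Of 11 genes that are known to be regulated by Ikaros factors in lymphocytes, 8 passed the filter on low counts. With DMSO, repeat against single peptide changed 5 of them, 1 up and 4 down, against the background of 47.0%. *Dtx1*, a Notch pathway ubiquitin ligase, had a mean of 6.54 normalized counts with repeat and 1694 with single peptide (log2 fold change -8.04, edgeR adjusted p = 2e-11). *Ifng*, the interferon gamma gene, had 756.3 and 46.1 (log2 fold change 4.04, edgeR adjusted p = 7.93e-06). *Bcl2*, a survival gene, fell by 0.68 on the log2 scale (edgeR adjusted p = 0.000142). *Dntt*, a listed gene named after its values were seen, was under the minimum for a call. Its mean normalized counts were 0.534 with repeat and 42.8 with single peptide (log2 fold change -6.13, edgeR adjusted p = 6.59e-06).

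Ibrutinib changed 3 of these 8 genes in repeat peptide stimulated cells, where 5.92% of all tested genes were called. *Dtx1* rose by 2.07 to a mean of 27.6 normalized counts, *Ifng* fell by 1.78 to 219.2, and *Il7r*, the interleukin 7 receptor gene, rose by 0.63 (edgeR adjusted p = 0.00415, 0.036 and 0.0105). In single peptide stimulated cells 2 of 8 were called, against 3.04% of all tested genes, *Ifng* at -2.51 and *Il7r* at 0.70 (edgeR adjusted p = 0.0494 and 0.00899). Here *Ifng* averaged 46.1 normalized counts with DMSO and 7.99 with ibrutinib, and met the minimum count only through the repeat peptide groups. The difference between the ibrutinib effects was called for 1 of the 8, *Dtx1*, at 2.17 (edgeR adjusted p = 0.0233), against 1.26% of all tested genes. Its repeat peptide side rests on the low *Dtx1* counts given above. With ibrutinib, repeat against single peptide changed 6 of the 8, 2 up and 4 down, against 38.4% of all tested genes, with *Dtx1* at -5.86, *Ifng* at 4.77 and *Tbx21*, the T-bet gene, at 1.06.

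Each member had its own nearest genes by Pearson correlation of log2 CPM, counts scaled to library size, over the 18 libraries, given as a description, since libraries share groups and experiments. For *Ikzf2* they were *Hnrnpu* (r = 0.923), *Tent4a* (r = 0.922) and *Ppp2r1b* (r = 0.922). For *Ikzf3* they were *Nlrc3* (r = 0.941), *Gimap8* (r = 0.899) and *Gm614* (r = 0.895). For *Ikzf4* they were *Igf2r* (r = 0.896), *Dennd4a* (r = 0.893) and *Cdyl2* (r = 0.879). For *Ikzf1* they were *Rprd2* (r = 0.881), *Zcchc2* (r = 0.869) and *Usp7* (r = 0.86). For *Ikzf5* they were *Jarid2* (r = 0.868), *Zbtb1* (r = 0.863) and *Ubr3* (r = 0.863). After group means were removed, r was 0.805 for *Hnrnpu*, 0.945 for *Nlrc3*, 0.844 for *Igf2r*, 0.824 for *Rprd2* and 0.897 for *Jarid2*. No member was among the nearest 3 genes of another.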

How the data were processed

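RNA-seq libraries were prepared by the authors from poly(A) RNA with a directional kit, aligned to GRCm38 and quantified with RSEM 1.3.1. The authors deposited, for each library, expected counts, TPM and transcript lengths per gene and transcript. The counts were rounded and joined to GENCODE M21, which matched 45143 of 45706 genes. The 27903 protein-coding and lncRNA genes held 98.5% of counts, and 12255 passed edgeR's filterByExpr. All 4 groups entered 1 fit without covariates (R 4.3.3, edgeR 4.0.16 with TMM scaling and quasi-likelihood tests), and transcript length was tested on the log2 scale with limma 3.58.1. DESeq2 1.42.0, the test the authors used, was an alternative, as were other scalings, filters, gene types, a replicate block and leaving out each library. Scripts were tested on simulated data. The genotype entry paired libraries: each of the 24 pairs within an experiment had correlated deviations from group means (r 0.16 to 0.494, median 0.325). The 97 pairs that differed in experiment and group overlapped this range, with r from -0.44 to 0.404, a median of -0.08 and 7 pairs over 0.1. No label says that libraries came from separate animals, so p-values may measure technical spread. No 2 libraries of a group were alike within sampling noise (chi-square over degrees of freedom of 28.7 to 225.7). The 5 members, the partner and target lists, and the 3 largest called changes named from each list were chosen with earlier results of these data known. *Btk* was read as a label check. Proteins were not used here. 1 marker of another cell type is not reported here.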

Additional observations from a re-analysis of the deposited data

Results flagged for a closer look

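In 40 groups of 4 or 5 libraries (5 genes, 4 groups, normalized count and transcript length), 2 values stood apart from their group by Dixon's ratio at the 95% level, and chance gives about 1 in 20. The mean transcript length of *Ikzf2* was 5203 bases in the single peptide DMSO library of experiment B, against a group median of 8028. The *Ikzf5* normalized count was 890.9 in the single peptide DMSO library of experiment C, against a group median of 1129. The cause was not tested for either value.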

How the results depend on the processing

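For repeat against single peptide with DMSO, the number of members called went from 2 to 1 with an offset for effective length, which lost *Ikzf3* (edgeR adjusted p = 0.076), and ranged from 1 to 2 when 1 library was left out. The replicate block by experiment raised it to 3 through *Ikzf4* (0.38, edgeR adjusted p = 0.0494) and changed no other member's call. It also raised the number of all genes called to 6564 from 5765 in that comparison, to 1694 from 726 for ibrutinib in repeat peptide stimulated cells, to 1114 from 373 in single peptide stimulated cells and to 679 from 154 for the difference between them. DESeq2 gave 1118, 602 and 339 for these. A fit of the compared groups alone gave 464 and 181, and leaving out 1 library gave 354 to 874, 131 to 391 and 84 to 171. The cause was not tested. No called change turned direction, but 33 values of 7 results that were not called did. For ibrutinib in repeat peptide stimulated cells, *Ikzf1* was -0.0037 with DESeq2 size factors, -0.074 with the effective length offset and -0.0036 in DESeq2's test, and ranged from -0.073 to 0.075 when 1 library was left out, and *Ikzf3* ranged from -0.0035 to 0.29. In single peptide stimulated cells *Ikzf1* ranged from -0.019 to 0.070. For repeat against single peptide, *Ikzf5* with DMSO was -0.0034 with no filter and ranged from -0.065 to 0.073, and *Ikzf3* with ibrutinib ranged from -0.19 to 0.058. For the difference between ibrutinib effects, *Ikzf2* was 0.17 with the offset and 0.19 with the block and ranged from -0.23 to 0.47, the highest without the repeat peptide DMSO library of experiment A, and *Ikzf1* was 0.047 with the block and ranged from -0.083 to 0.049. A further 51 values that the text does not give, of transcript length and of the added comparison, also turned, and 0 of them had an edgeR or limma adjusted p under 0.05. The number of members called by transcript length was 0 under each alternative. With 4 or 5 libraries a group, the intervals of *Ikzf2* and *Ikzf4* were wider than those of *Ikzf1* and *Ikzf5*. For the comparison added afterwards, the mean ibrutinib effect over both stimulations, the 1 member called became 0 with no filter on low counts, with the effective length offset and with all gene types, and ranged from 0 to 1 when 1 library was left out, and the block gave 2341 genes from 1184.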

Other observations

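After the values were seen, the ibrutinib effect was also taken as the mean over repeat and single peptide stimulated cells, because *Ikzf2* was lower with ibrutinib in 4 of 4 experiments in both. This comparison was chosen on the data and is not independent of the results above. The 95% interval of the *Ikzf2* change was -1.20 to -0.26. The call held with the replicate block (-0.61, edgeR adjusted p = 0.0219) and in DESeq2 (-0.74, adjusted p = 0.00885). It was lost without a filter on low counts (-0.72, edgeR adjusted p = 0.118), with an offset for effective length (-0.80, edgeR adjusted p = 0.053) and with all gene types (-0.72, edgeR adjusted p = 0.0501).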
